A study of Homo sapiens with 6 samples.

Results

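This report describes 948 merged anchors of the human genome in which H3K27ac anchors covered at least 2 times as many base pairs on day 3 of SMARCB1 re-expression as on day 0. They were chosen from 30001 merged anchors, made by joining the anchors of all 6 deposited loop lists wherever they overlapped by 1 bp or more. In each merged anchor, the cover of a group is the number of base pairs under that group's own anchors. A merged anchor was kept when its day 0 H3K27ac cover was at least 1 bp and under 20 kb and its day 3 H3K27ac cover was at least 2 times as large. Of the 6990 merged anchors called for H3K27ac at both times, 61 went the other way, with a day 0 cover at least 2 times the day 3 cover. A further 7 regions widened as much but started at 20 kb or more and fall outside the rule.

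The data are HiChIP, which joins DNA segments that lie close together in the nucleus and keeps those carrying a chosen protein or histone mark. The 3 groups held 2 libraries each: H3K27ac at day 0 in SMARCB1 -/- cells, H3K27ac at day 3 in SMARCB1 +/+ cells, and ARID1A at day 3 in SMARCB1 +/+ cells. All came from G401, an established line of a human rhabdoid tumour that lacks SMARCB1, carrying an inducible SMARCB1 and kept in Tet-free serum. The day 3 cells had received doxycycline at 1 μg/ml. No group had doxycycline without SMARCB1, so SMARCB1, doxycycline and time cannot be told apart. The labels name a single engineered line and do not say whether replicates were separate cultures, so a p-value reflects how far these libraries varied, possibly for technical reasons alone.

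H3K27ac, acetylation of lysine 27 on histone H3, marks active promoters and enhancers, and long continuous stretches of it are typical of strong or clustered enhancers. SMARCB1 is a core subunit of the SWI/SNF (BAF) complexes, which move nucleosomes and open chromatin. ARID1A is a large DNA-binding subunit of the canonical BAF form of that complex, which is known to act at enhancers. Rhabdoid tumours are known for loss of SMARCB1 with few other mutations, and loss of SMARCB1 is known to weaken SWI/SNF binding at enhancers.

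The libraries listed between 44104 and 164053 loops holding 253502 to 982141 paired-end tags (PETs). A PET is a read pair joining 2 anchors, and CPM below is the PET count scaled to a common total, taken over the PETs of the library that join different merged anchors. Day 3 H3K27ac libraries were the deepest. Replicates shared nearly all of their anchors base for base, 98.4% or more, while libraries of different groups shared at most 3.48%. The width of an anchor is therefore 1 value per group with no replicate error. With every library thinned to 253502 PETs, and anchors kept wherever a loop remained, the rule gave 945 regions. The anchors themselves were called before this thinning, so whether their width depended on depth was not tested. Because the day 3 against day 0 H3K27ac contrast chose the regions, its values below are a description and carry no test.

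Coordinates are those of the deposited files (hg19). An hg19 gene annotation or genome sequence was not used here. Regions therefore carry cytoband names, no gene is assigned to any of them and no sequence is shown. Genes named beside a band are textbook residents of that band, and their distance to the region was not measured.

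The widened regions began narrow. Their day 0 cover had a median of 4974 bp (range 2099 to 19807 bp), and their day 3 cover had a median of 13002 bp (range 4990 to 80682 bp). The median ratio was 2.46, the highest 12.4, and the median gain 7991 bp. The 5572 regions with the same day 0 limits that were called at day 3 but stayed under 2 times, used below as the comparison set, had medians of 5677 bp and 6659 bp. The day 0 limit and the split by ratio are set by the rule.

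The new stretches mostly surrounded the old ones. In 792 of 948 regions (83.5%) every base pair called at day 0 was still called at day 3, and only 3 regions shared no base pair between the times. The gain lay on both sides of the day 0 anchor, with at least 10% of it on each, in 584 regions (61.6%), and at least 90% of it lay on 1 side in 319 (33.7%). At day 0 the cover was 1 unbroken anchor in 870 regions (91.8%). At day 3 it was 1 unbroken anchor in 683 (72.0%), and in the others it was split among up to 6 anchors within the same merged region. An ARID1A anchor can be what joins such separate anchors into 1 region. The cover ratio then includes separate day 3 anchors and does not measure the widening of a single anchor.

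The region with the largest gain was at 12q14.3 (chromosome 12, 65976658 to 66059233), a band that also holds HMGA2, a chromatin architectural factor expressed in embryos and in many tumours. Its cover went from 13651 to 75866 bp, and all 64596 bp that were new lay on 1 side of the day 0 anchor. Its H3K27ac PETs were 876 and 769 CPM in the day 0 libraries and 2604 and 2616 CPM in the day 3 libraries. ARID1A anchors covered 78263 bp of the region and 61542 bp of the new stretch, and the ARID1A libraries gave 1513 and 1432 CPM. The 2 day 3 H3K27ac libraries lay far above both day 0 libraries, and the groups did not overlap.

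At 4p14 (chromosome 4, 40595431 to 40693467), the widened region with the largest day 3 cover, the cover went from 19469 to 80682 bp. Its day 0 libraries gave 584 and 596 CPM, its day 3 libraries 1325 and 1318 CPM, and its ARID1A libraries 1134 and 1058 CPM. Here 2 separate day 0 anchors were kept, and the gain lay to the left of them (31162 bp), to the right (12475 bp) and between them (17576 bp). The day 3 cover was split among 3 anchors joined by 2 ARID1A anchors, so the gain and ratio include separate day 3 anchors.

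At 17q21.31 (chromosome 17, 41767192 to 41817327), a band that also holds the ETS factor gene ETV4, the cover went from 4449 to 40531 bp. Day 0 libraries gave 211 and 227 CPM, day 3 libraries 1459 and 1453 CPM, and ARID1A libraries 767 and 869 CPM. The number of partner anchors, that is, of different merged anchors joined to it, was 15 and 17 at day 0 and 68 in both day 3 libraries. A single ARID1A anchor lay over 33813 of the 36082 bp gained and joined 4 separate day 3 H3K27ac anchors into 1 region. Of these, only the anchor from 1.23 to 13.1 kb right of the region centre overlapped the day 0 anchor. The gain and ratio of this region thus include separate day 3 anchors.

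The region at 3p22.2 (chromosome 3, 37973853 to 38011748) had the highest ratio, 12.4, from 3068 to 37895 bp. It rested on only 3 and 8 PETs at day 0, against 212 and 259 PETs at day 3 and 72 and 103 ARID1A PETs. The next ratios were 9.19 at 3q22.1 (chromosome 3, 133164424 to 133201301), 9.11 at 17q21.31, and 8.13 at 20q13.13 (chromosome 20, 49035937 to 49072846). At 3q22.1 the day 0 libraries held 7 and 3 PETs and the day 3 libraries 419 and 451. At 20q13.13, in a band that also holds CEBPB, a leucine zipper transcription factor of differentiation, they held 13 and 13 at day 0 and 468 and 426 at day 3. At 7p12.3 (chromosome 7, 47513356 to 47545474), with a ratio of 8.02, they held 17 and 17, then 473 and 532. At 4q35.1 (chromosome 4, 186112607 to 186136160), with a ratio of 7.10, they held 5 and 5, then 145 and 149. These 5 regions thus had few PETs at day 0, 17 or fewer per library, and their day 0 levels are imprecise. The 17q21.31 region differed from them: its day 0 libraries held 55 and 50 PETs, and the later ones 1270 and 1338.

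At 2p16.1 (chromosome 2, 58854536 to 58895687) the cover went from 5785 to 38522 bp, with 115 and 100 CPM at day 0 and 1259 and 1350 CPM at day 3. Nearly all of the gain, 31398 bp, lay on 1 side. The day 3 cover was split between 2 anchors joined by an ARID1A anchor. Only the narrower, from 10.8 to 20.6 kb right of the region centre, overlapped the day 0 anchor, and it was under 2 times as wide. At 6p21.2 (chromosome 6, 36767250 to 36808490), a band that also holds the cell cycle inhibitor gene CDKN1A, the cover was 5465 bp and 36795 bp. Its libraries gave 257 and 268 CPM at day 0, 1089 and 981 CPM at day 3, and 512 and 548 CPM for ARID1A.

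The other members of the 12 largest gains were at 5q23.2, 11q13.4, 14q22.3, 9q31.2, 6q13 and 3q28, a band that also holds the epithelial regulator gene TP63. At day 0 their covers ranged from 5869 to 19005 bp, and 3 days later from 36727 to 51052 bp. At 5q23.2 (chromosome 5, 123959974 to 124016677) the day 0 libraries gave 380 and 441 CPM, the day 3 libraries 929 and 970 CPM and the ARID1A libraries 777 and 761 CPM. Its day 3 cover was split among 3 anchors joined by ARID1A anchors. Only the widest of them overlapped the day 0 anchor, and it was under 2 times as wide. At 11q13.4 (chromosome 11, 75018086 to 75064242) 1 day 3 anchor spanned what had been 3 day 0 anchors, and 26125 of the 31138 bp gained lay between them. Its levels were 99.8 and 127 CPM at day 0, 360 and 370 CPM at day 3 and 326 and 313 CPM for ARID1A.

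At 14q22.3 (chromosome 14, 56042018 to 56080274) and 9q31.2 (chromosome 9, 110030743 to 110077550), ARID1A was above H3K27ac in CPM at day 3. The 14q22.3 region gave 53.8 and 81.9 CPM at day 0, 301 and 303 CPM at day 3 and 422 and 339 CPM for ARID1A. The 9q31.2 region gave 154 and 132 CPM, 284 and 272 CPM, and 438 and 463 CPM, with 1 ARID1A anchor of 46807 bp over 6 separate day 3 H3K27ac anchors. The same order held at 3q28 (chromosome 3, 189778429 to 189841021), with 338 and 318 CPM at day 0, 461 and 461 CPM at day 3 and 648 and 605 CPM for ARID1A. At 6q13 (chromosome 6, 70935882 to 70990923) contacts with other merged anchors gave 65.3 and 36.4 CPM and then 124 and 122 CPM, to 2 partners at day 0 and 4 at day 3. More PETs lay inside this merged region at day 3, 231 and 247 against 108 and 112 leaving it, and such inner PETs are left out of CPM. The 9q31.2 region likewise held 141 and 155 inner PETs of day 3 H3K27ac and 0 of ARID1A, whose cover was unbroken there.

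In all 12 regions both day 3 libraries lay above both day 0 libraries. That held in 77.4% of the 948 widened regions and in 33.0% of the 6990 regions called at both times. All 12 had ARID1A anchors, as did 91.8% of widened regions and 82.9% of regions called at both times. The map of called anchors shows the 12 regions side by side.

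**Figure D1:**
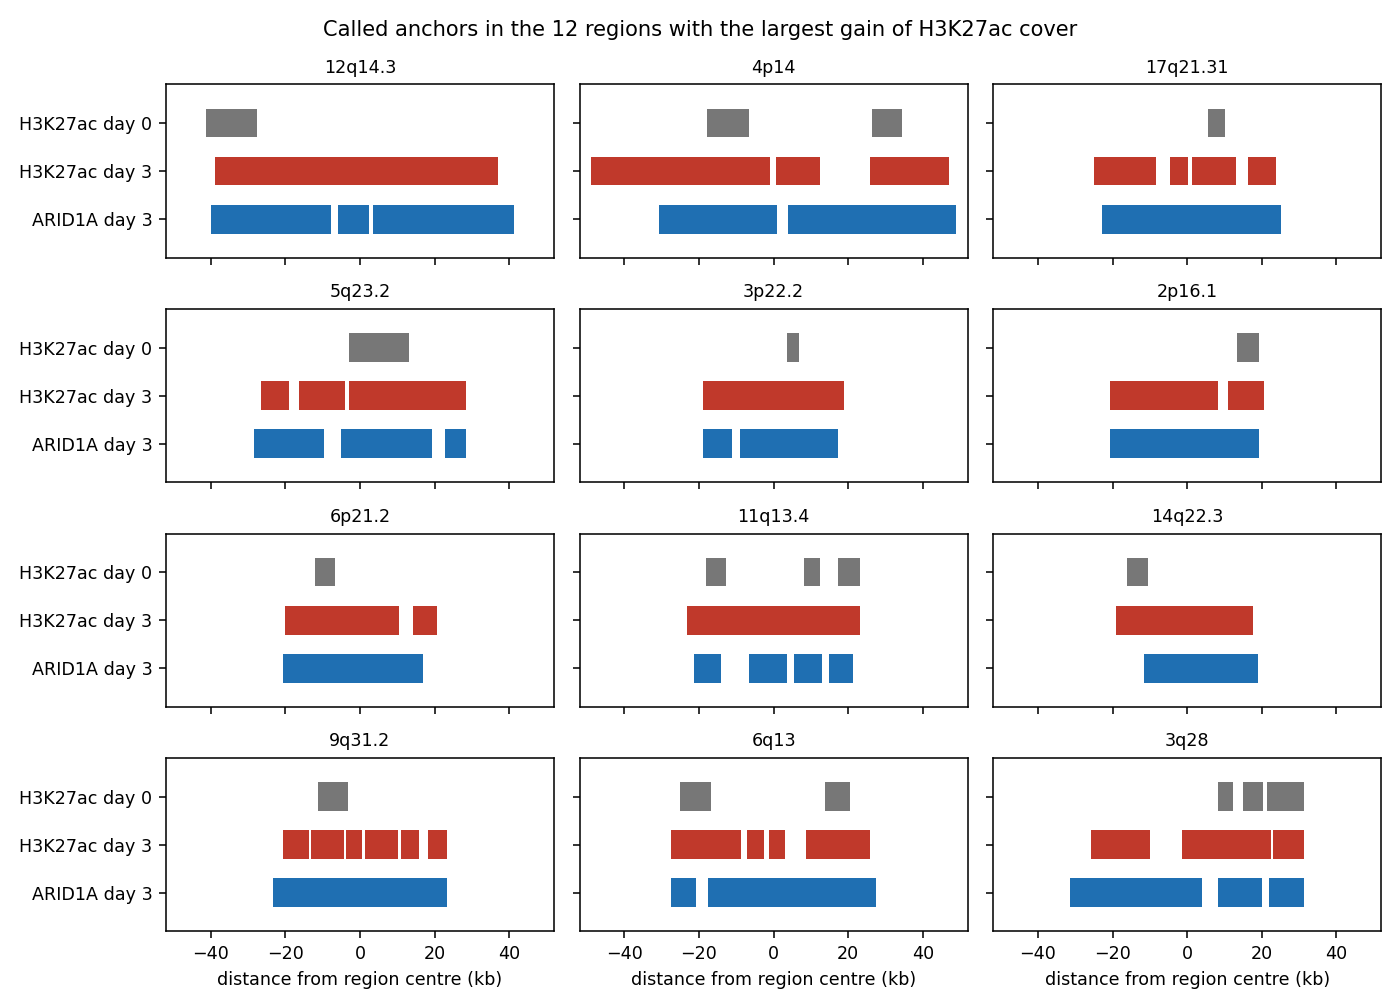
Called anchors of H3K27ac at day 0 (grey), H3K27ac at day 3 (red) and ARID1A at day 3 (blue) in the 12 widened regions with the largest gain of cover, drawn to scale against distance from the centre of each merged region in kb. At 12q14.3 the day 3 anchor extends to 1 side only, at 11q13.4 it bridges 3 day 0 anchors, and ARID1A anchors lie over most of the gained cover in each region.

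**Figure D2:**
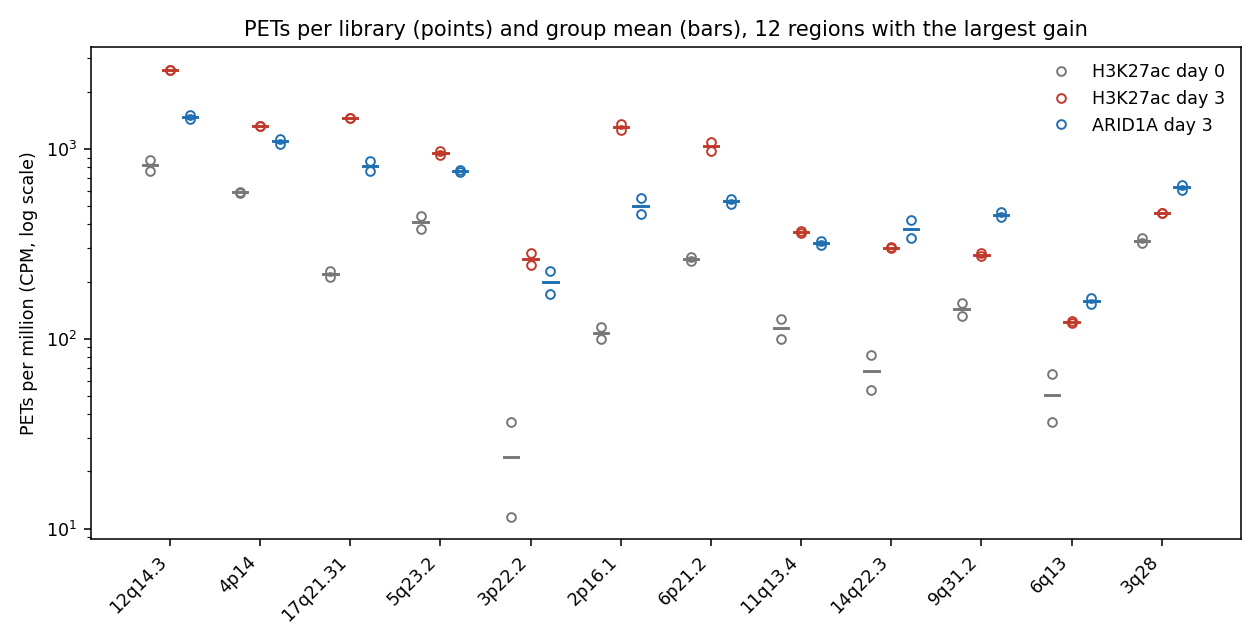
CPM in each library (open points, log axis) and the mean of the 2 libraries of a group (short bars) in the same 12 regions, for H3K27ac at day 0, H3K27ac at day 3 and ARID1A at day 3. All day 3 H3K27ac points lie above the day 0 points of the same region, and the day 0 libraries lie farthest apart at 3p22.2 (3 and 8 PETs), 6q13 (17 and 8 PETs) and 14q22.3 (14 and 18 PETs).

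Wider cover came with more contacts in most, though not all, regions. Median CPM over the 948 regions was 99.8 and 95.5 in the day 0 libraries and 178.6 and 174.3 in the day 3 libraries. In the comparison set it was 99.8 and 100.1 at day 0 and 89.6 and 90.2 at day 3. Both day 3 libraries lay above both day 0 libraries in 734 regions (77.4%), where 33.0% of the 6990 regions called at both times did, and below them in 70 (7.38%), against 42.1%. Mean CPM was at least 2 times higher at day 3 in 381 regions (40.2%), against 13.4%. Since the rule used this contrast, nothing is read from these shares. In the edgeR fit of day 3 against day 0, over loops between anchors called at both times, the median log2 fold change of the 911 regions it held was 0.88 against -0.01 over all 6251. Scaled by library totals instead, the medians were 0.37 and -0.51.

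Contacts per kb of cover were lower at day 3 in widened regions and in regions at large. CPM per kb had a median of 19.1 at day 0 and 12.8 at day 3 in widened regions, and 18.3 and 13.7 over all regions called at both times. It was lower at day 3 in 741 widened regions (78.2%). That share was 73.7% over all regions called at both times with a contact at day 0, close to that of the widened regions. Of the 12 largest gains, 10 had fewer CPM per kb at day 3, as at 12q14.3 with 60.2 and 34.4. The exceptions were 2p16.1, with 18.6 at day 0 and 33.9 at day 3, and 11q13.4, with 7.56 and 7.91.

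**Figure D3:**
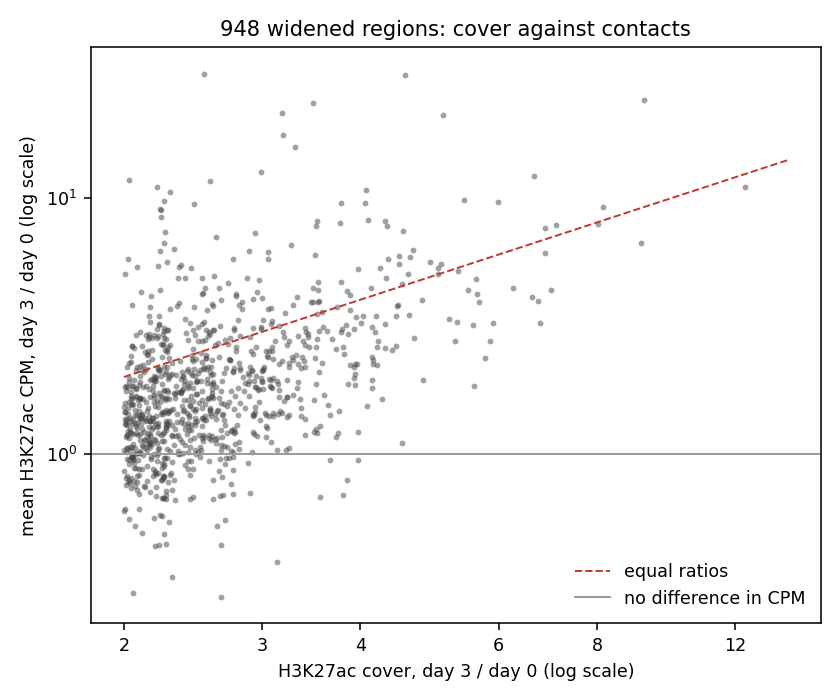
Each point is 1 of the 948 widened regions, with the ratio of day 3 to day 0 H3K27ac cover on the horizontal axis and the ratio of mean day 3 to mean day 0 H3K27ac CPM on the vertical axis (both log scales). Most points lie above the grey line of equal CPM and below the dashed line, where contacts per kb were lower at day 3 (741 regions).

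The 70 regions that were wider with fewer contacts had a median day 0 level of 245 CPM, where the 734 regions with more contacts had 90.3 CPM, and their median cover ratio was 2.23 against 2.55. Among them, the region at 1p36.11 (chromosome 1, 23957782 to 23985505) had 941 and 992 CPM at day 0 and 257 and 279 CPM at day 3, while its cover was 8416 bp and 22376 bp. At 5q13.3 (chromosome 5, 74226889 to 74270466) the levels were 1936 and 2020 CPM at day 0 and 1056 and 1091 CPM at day 3, with 16031 bp and 36608 bp of cover. These were picked after their values were seen, as the 2 with the larger folds among the 5 such regions highest at day 0. At 1p36.11 the fitted log2 fold change, over loops between anchors called at both times, was 0.0752 ± 0.147 (SE). The fall there thus depends on which loops and totals count. In CPM over all loops, called width and contact level can move in opposite directions in 1 region.

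The partners of a widened region also grew in number. At equal depth the median was 7 partners in both day 0 libraries, 14 in both day 3 libraries and 12 in both ARID1A libraries. The comparison set had medians of 7, 10 and 7. A wider anchor can collect more partners, and its width was not adjusted for. Of the PETs with an end in a widened region, those joining it to another widened region made up 5.01% and 5.08% at day 0 and 6.93% and 7.03% at day 3. Counted per PET end, these shares were 9.54% and 9.66% at day 0 and 13.0% and 13.1% at day 3. In the comparison set the ends joined to a widened region made up 7.73% and 7.81%, then 11.1% in both day 3 libraries. The rise was thus seen in both sets. PETs joining a widened region to an anchor called only at day 3 made up 30.2% and 29.7% at day 3, against 35.5% and 35.3% in the comparison set. That gap depends on the denominator, since a PET between a pair of regions of the same set counts once here: counted per PET end, the shares were 28.2% and 27.8% against 27.8% and 27.6%.

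Many widened regions lay in contact with each other. At day 3, 1195 different loops joined 2 of them and 774 of the 948 regions took part in such a loop. Of these loops 666 (55.7%) were also listed at day 0 and 625 (52.3%) for ARID1A. The same counts were not made for the comparison set, so they are not read as particular to widened regions. The strongest joined the 17q21.31 region above to its neighbour (chromosome 17, 41818552 to 41847801) over 40.9 kb, with 11 and 5 PETs at day 0, 297 and 316 at day 3 and 125 and 160 for ARID1A. A loop at 6q25.2 (chromosome 6, 154791713 to 154849518 with 154857266 to 154899341) held 37 and 31 PETs at day 0, 247 and 253 at day 3, and 126 and 109 for ARID1A.

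The loop with the fewest day 0 PETs among the 6 strongest was at 3q22.1, where the region with the ratio of 9.19 met a region starting at 133279996, 107 kb away. It had 1 PET in each day 0 library, 147 and 162 at day 3, and 33 and 44 for ARID1A. The others were at 9q33.3 (10 and 12, then 127 and 176), at 8p11.23 (9 and 7, then 136 and 154) and between 12q24.21 and 12q24.22 (31 and 24, then 132 and 156). The last had no ARID1A PETs listed, since 1 of its anchors had no ARID1A anchor called. In CPM, which takes depth into account, the 17q21.31 loop had 42.2 and 22.7 at day 0 and 341 and 343 at day 3. The 12q24 loop had 119 and 109, then 152 and 169. The day 3 values were the higher ones in all 6 loops, by very different amounts. These loops were ranked by their day 3 H3K27ac PETs, between regions chosen by the same contrast, so nothing is read from that count.

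The typical span of a contact was similar at both times in widened regions. Weighted by PETs, the median distance was 111.6 ± 0.318 kb before and 111.7 ± 1.12 kb after re-expression (SD, n = 2), a difference smaller than the spread between libraries. In the comparison set the day 0 libraries gave 102.4 and 105.3 kb, and those of day 3 gave 114.3 and 112.2 kb. This similarity did not hold among loops with a deposited value of 0.01 or less, where widened regions had 231 ± 3.87 kb before and 107 ± 1.44 kb after. The cause was not tested.

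ARID1A, which entered the choice only through the merging of anchors, was called in 870 of the 948 widened regions (91.8%, 95% Wilson interval 89.9 to 93.4%). It was called in 4506 of the 5572 comparison regions (80.9%, 79.8 to 81.9%). Intervals here cover counting error only, and regions are not replicates. An ARID1A anchor that joins separate day 3 anchors can bring a region into the widened set, so the share is not independent of the choice. With H3K27ac anchors merged alone it was 90.9% of 857 regions, and the comparison set was not recomputed that way. Width moved with the ARID1A share. Among regions under 10 kb at day 3 the share was 84.2% in the widened and 76.7% in the comparison regions, with intervals that did not overlap (78.8 to 88.4% and 75.4 to 77.9%). Between 10 and 20 kb it was 93.2% and 94.2%, and from 20 kb it was 96.7% and 94.5%, with overlapping intervals. The sets were thus apart in the narrowest class alone, and widths within a class were not matched.

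The stretches gained at day 3 lay under ARID1A anchors over 67.8% of their base pairs, and the stretches covered at both times over 82.3%. In the comparison set the shares were 53.7% and 73.2%. ARID1A lay over every gained base pair in 209 widened regions and over none in 120, which include the regions with no ARID1A anchor. It follows that ARID1A anchors were somewhat less common over new H3K27ac than over kept H3K27ac in both sets. ARID1A libraries were made only at day 3, so whether ARID1A was there at day 0 was not measured.

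Both ARID1A measures were higher in the regions that widened more. Among the 496 regions with a ratio under 2.5, 88.9% had an ARID1A anchor and 61.6% of the gained base pairs lay under one. Among the 217 from 2.5 to 3 the shares were 91.2% and 67.4%, and among the 157 from 3 to 4 they were 97.5% and 70.7%. All 78 regions with a ratio of 4 or more had an ARID1A anchor, over 79.7% of the gained base pairs. Median day 3 cover rose along with the ratio, from 11243 to 13834, 16183 and 22738 bp, and its part in these shares was not tested. An ARID1A anchor can also join separate day 3 H3K27ac anchors into 1 region, which raises the ratio and the gained base pairs. These shares are therefore not independent of the ratio, and the classes were not recomputed without that joining. When H3K27ac anchors were merged without ARID1A anchors, 857 regions met the rule and ARID1A covered 62.4% of their gained base pairs.

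**Figure D4:**
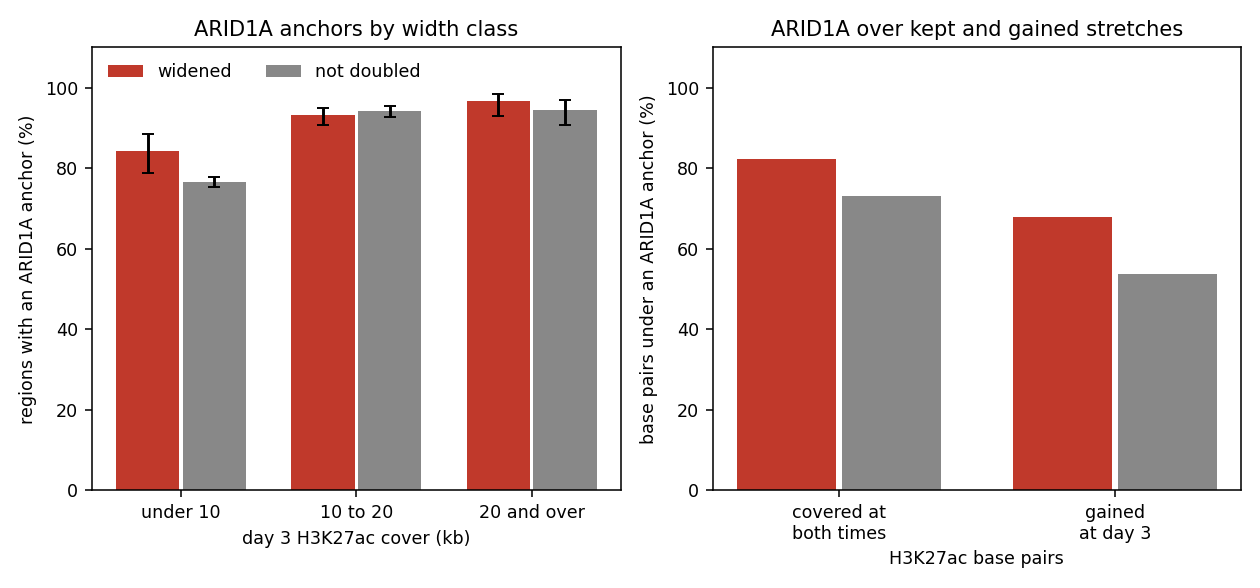
Left, the percent of regions with an ARID1A anchor in 3 classes of day 3 H3K27ac cover, for the 948 widened regions (red) and the 5572 comparison regions (grey), with 95% Wilson intervals as error bars. Right, the percent of H3K27ac base pairs under an ARID1A anchor for stretches covered at both times and stretches gained at day 3, with no error bars because anchors were listed once per group. The 2 sets part on the left only under 10 kb, and on the right the widened regions are higher for kept (82.3% against 73.2%) and gained base pairs (67.8% against 53.7%).

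ARID1A was absent from the anchor calls in 78 widened regions. The largest gains among them were at 1q41 (chromosome 1, 214609419 to 214631583), where the cover was 6271 bp and 22164 bp, and at 12q24.21 (chromosome 12, 116692847 to 116721194), where it was 13171 bp and 28347 bp. The 1q41 region had 46.1 and 59.1 CPM of H3K27ac at day 0 and 195 and 218 CPM at day 3, and the 12q24.21 region had 342 and 469 CPM, then 727 and 729 CPM. Those at 13q34, 9q31.3 and 20q13.12 gained 12610, 12444 and 11894 bp. In all 5 of these regions both day 3 libraries were above both day 0 libraries. The same held in 77.4% of all widened regions and in 33.0% of the 6990 regions called at both times. A region with no ARID1A anchor was not measured for ARID1A contacts, so its unlisted loops are no evidence of 0 contacts.

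ARID1A and H3K27ac contacts at day 3 were then compared with edgeR's quasi-likelihood test over 11052 anchors called in both, counting only loops between such anchors. Of the 860 widened regions that could be tested, 236 (27.4%) were higher for ARID1A than for H3K27ac and 373 (43.4%) lower, at a Benjamini-Hochberg adjusted p under 0.05. Counts were scaled between libraries, so a call is relative to the other anchors and absolute numbers of contacts were not compared. Over all anchors 31.5% were higher and 32.5% lower. The median log2 fold change was -0.27 in widened regions and -0.05 over all. The day 3 H3K27ac cover that helped to choose the regions is on 1 side of this contrast, so the excess of lower calls is not independent of the choice. Scaled by library totals, which moves the median of all anchors by -0.61, 92 were higher and 584 lower, so that 13.6% rather than 38.8% of the calls were higher. Without the second H3K27ac day 3 library, 156 were higher.

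Which way a region went moved with how wide ARID1A was called there. The median ratio of ARID1A to day 3 H3K27ac cover was 1.28 in the 236 higher regions, 0.693 in the 373 lower and 1.02 in the 251 not called. Among the 310 widened regions whose covers were within 1.2 times of each other, 113 were higher and 77 lower, against 25.9% and 25.4% of the 3608 such anchors in all. In this subset the balance was thus on the other side, with 36.5% higher and 24.8% lower.

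**Figure D5:**
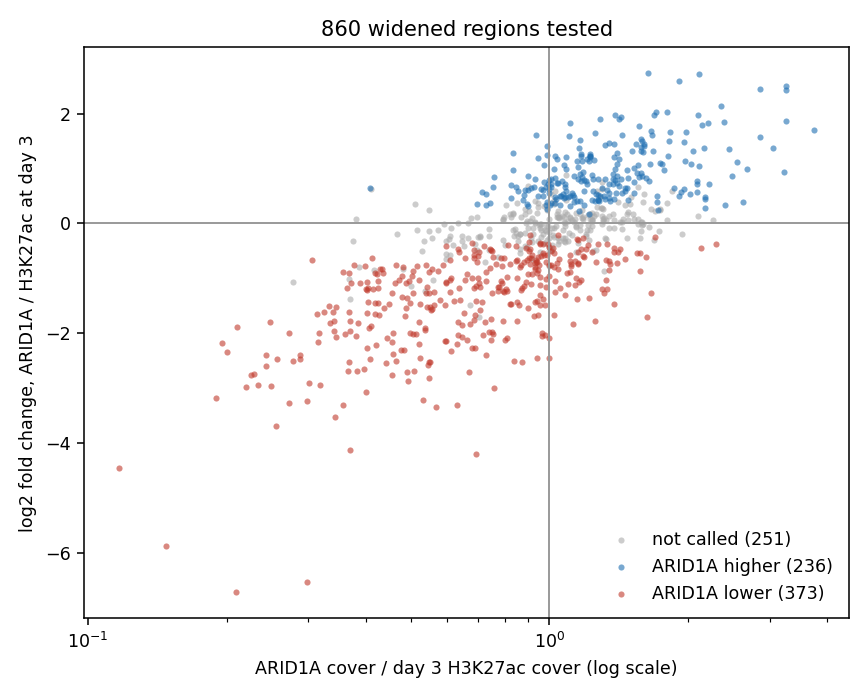
Each point is 1 of the 860 widened regions tested, with the ratio of ARID1A to day 3 H3K27ac cover on the horizontal axis (log scale) and the log2 fold change of ARID1A over H3K27ac contacts at day 3 on the vertical axis. Blue marks the 236 regions called higher for ARID1A, red the 373 called lower and grey the 251 not called, and regions where ARID1A was called narrower than H3K27ac lie mostly below 0.

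The regions called higher with the smallest p included a pair of neighbours at 3p14.3. In the larger (chromosome 3, 57792837 to 57857500) ARID1A covered 63409 bp and H3K27ac 7257 bp before and 19444 bp after re-expression. ARID1A libraries gave 1124 and 1104 CPM there, day 3 H3K27ac libraries 264 and 204 CPM, and day 0 libraries 127 and 100 CPM. The log2 fold change of ARID1A over day 3 H3K27ac was 2.5 ± 0.0931 (SE; edgeR adjusted p = 6.6e-153). Its neighbour (57757852 to 57792647) had 715 and 670 CPM for ARID1A against 181 and 155 CPM, with a log2 fold change of 2.46 ± 0.110. At 2q32.2 (chromosome 2, 189954563 to 190000420), a band that also holds the fibrillar collagen genes COL3A1 and COL5A2, ARID1A gave 831 and 894 CPM and day 3 H3K27ac 254 and 257 CPM, a log2 fold change of 1.95 ± 0.0963.

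The others were 3q25.1 (chromosome 3, 150111303 to 150142596), 20q11.22 (chromosome 20, 34283593 to 34313349) and 4q22.1 (chromosome 4, 90665775 to 90692573), with log2 fold changes of 2.6, 2.43 and 2.74. At 4q22.1 the H3K27ac level was low at both times, 46.1 and 63.7 CPM and then 86.1 and 98.8 CPM, where ARID1A gave 574 and 486 CPM. Its partners numbered 7 and 8 for day 3 H3K27ac and 33 and 34 for ARID1A. In all 6 the ARID1A cover was wider than the day 3 H3K27ac cover, as at 20q11.22 with 29756 bp against 9141 bp. ARID1A cover exceeded day 3 H3K27ac cover in 42.1% of all widened regions and in 41.9% of the regions called at both times. The 6 were picked by calls that moved with ARID1A cover, so nothing is read from their wider ARID1A cover. ARID1A was also abundant in the looped pair at 6q25.2, with 984 and 865 CPM in the right-hand region against 525 and 538 CPM for H3K27ac (log2 fold change 1.26 ± 0.0785, edgeR adjusted p = 3.05e-56).

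The regions called lower with the smallest p began with 1q23.1 (chromosome 1, 156652867 to 156701143). Its H3K27ac libraries gave 2212 and 2356 CPM at day 0 and 1903 and 1880 CPM at day 3, and its ARID1A libraries 395 and 399 CPM. The log2 fold change was -1.67 ± 0.0771 (edgeR adjusted p = 1.36e-100), although the covers at day 3 were nearly equal, 39759 bp for ARID1A and 38869 bp for H3K27ac. At 19p13.2 (chromosome 19, 12883499 to 12913568) ARID1A gave 198 and 182 CPM and day 3 H3K27ac 763 and 751 CPM. There too the covers were close, 25729 bp and 26297 bp, and the log2 fold change was -2.03 ± 0.134.

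At 11q13.1, 7q22.1, 19p13.3 and 9q34.11 the log2 fold changes were -2.71, -3.27, -2.28 and -1.79. At 11q13.1 (chromosome 11, 63999211 to 64022377) H3K27ac gave 507 and 555 CPM at day 0 and 759 and 776 CPM at day 3, with 65 and 78 partners, while ARID1A gave 92.9 and 88.7 CPM with 19 and 20 partners. At 7q22.1 (chromosome 7, 100997218 to 101012463) ARID1A covered only 4152 of the 15245 bp that H3K27ac covered, and gave 47.6 and 55.4 CPM against 519 and 486 CPM. H3K27ac thus widened in regions where scaled ARID1A contacts were many times lower than H3K27ac contacts, and in regions where they were higher.

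The largest gains were spread over both directions and the regions not called. ARID1A contacts were higher at 9q31.2 (log2 fold change 1.18 ± 0.109), a band that also holds the zinc finger factor gene KLF4, at 3q28 (0.77 ± 0.0916) and at 2p16.1 (0.45 ± 0.0933). They were lower at 6p21.2 (-0.44 ± 0.0813), 11q13.4 (-0.35 ± 0.143) and 17q21.31 (-0.26 ± 0.0685). The other 6 of the 12, 12q14.3 and 4p14 among them, did not pass the test. At 9q31.2, 3q28 and 2p16.1 an ARID1A anchor joined separate day 3 H3K27ac anchors into 1 region. Without that joining these regions would not have reached 2 times, so their higher calls are not independent of the choice. ARID1A anchors also joined separate day 3 anchors at 6p21.2 and 17q21.31, among the lower. At 2p16.1 the call depends on which loops count: over all loops ARID1A gave 550 and 455 CPM and H3K27ac 1259 and 1350 CPM. An adjoining region (58778232 to 58853761), which widened from 21056 to 74711 bp and so missed the rule, had no ARID1A anchor, and its loops were left out of the fit. Over all loops, 22 of the 236 regions called higher had both ARID1A libraries below both H3K27ac libraries in CPM, and 1 of the 373 called lower had both above.

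Per library, PETs with an end in a widened region made up 13.4% and 13.6% of all at day 0, 21.1% and 21.0% for H3K27ac at day 3 and 15.0% and 15.1% for ARID1A. The ARID1A share was 6.03 percentage points below that of day 3 H3K27ac, with no overlap of libraries (difference -6.03, exact two-sided permutation p = 0.333). That is the smallest p that 2 libraries against 2 allow, so the test cannot pass 0.05. The day 3 H3K27ac cover helped to choose the regions, so this difference is not independent of the choice and nothing is read from it. In the comparison set the shares were 64.1% and 64.4% for day 3 H3K27ac and 39.6% and 39.9% for ARID1A. ARID1A contacts of widened regions were also shorter, with a PET-weighted median span of 91.7 ± 0.103 kb (SD, n = 2; difference -20.1 kb, exact permutation p = 0.333). The comparison regions had 93.1 kb in both ARID1A libraries, so short ARID1A spans were not peculiar to widened regions.

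The regions just at the limits show how sharp the rule is. Just inside the ratio, 19p13.12 (4969 and 9939 bp) and 15q22.2 (9447 and 18902 bp) both had a ratio of 2.00. Just outside, 22q12.1 (4354 and 8707 bp) and 6p25.2 (6130 and 12255 bp) also round to 2.00. By day 0 cover, 10q22.3 (19807 bp) and 4p14 (19469 bp) were the last inside, and 12q14.2 (20974 bp) and the 2p16.1 neighbour (21056 bp) the first outside.

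Widened regions were found on every chromosome counted. Of the merged anchors with day 0 cover under 20 kb that were called at both times, 14.5% widened (946 of 6513, chromosome Y left out). The share ran from 9.68% on chromosome X (6 of 62, 95% Wilson interval 4.51 to 19.5%) to 18.2% on chromosome 10 (52 of 285, 14.2 to 23.1%). Both intervals include the overall share. The densest windows of 1 Mb were at 19q13.2 (chromosome 19, 43261503 to 44183809) and 1p36.22 (chromosome 1, 9289528 to 10279468), with 7 widened regions each, of 17 and 18 that could have widened. A window at 22q13.1 held 6 of 16, one at 9p24.2 held 5 of 12 and one at 19q13.32 held 5 of 13. Every widened region in these 5 windows had an ARID1A anchor. That share was 91.8% over all widened regions and 82.9% over regions called at both times.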

How the data were processed

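The deposited files list, without headers, pairs of anchors, a PET count and a value from 0 to 1. Reads were paired, 150 bp long, per the labels' protocols. HiC-Pro, Bowtie2 and hg19 are named, without versions, in the submitters' processing notes, while the loop caller and the anchor calling are not stated there. The deposited counts were used as they are, unnormalised. The deposited value could be a p-value or q-value (nothing states which), and it served only as a threshold of 0.01 in alternatives. The files do not say whether coordinates count from 0 or 1. Anchor cover depends on the authors' calling and may depend on depth.

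Anchors were merged and covers computed in Python 3.11.15 with pandas 2.3.3. Loops inside a merged anchor (3.53 to 13.7% of PETs) were left out. Anchors with at least 10 PETs in at least 2 libraries were tested with edgeR 4.0.16 in R 4.3.3 (quasi-likelihood, TMM), the 4 libraries of the compared groups entering. PETs were summed over loops whose merged anchors were called in both groups, and Benjamini-Hochberg adjustment ran over all anchors tested. The script was tested on simulated data. Library values were compared by exact permutation tests (scipy 1.17.1). Bands are from circlize 0.4.16. DESeq2 1.42.0, other scalings, merging rules, thinning and left-out libraries were alternatives. Samples were grouped by title. Same-numbered replicates did not deviate together (correlation 0.0126), so numbers were not taken as pairs.

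Regions named are the 12 with the largest gain, the 6 with the largest ratio, the 6 with most ARID1A PETs, the 6 called with the smallest p per direction, the 6 strongest loops between members, the 5 densest windows of 1 Mb, the nearest to each threshold, and the 5 largest gains without ARID1A. The gene lists planned for an hg19 annotation were not run. The regions and lists were chosen with earlier results of these data known.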

Additional observations from a re-analysis of the deposited data

How the results depend on the processing

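The number of widened regions was 857 to 1008 under other merging and with libraries left out or thinned, 702 with loops at a deposited value of 0.01 or less, and 235 at a cover ratio of at least 3. The ARID1A anchor share was 98.3% at that ratio and 90.9% with H3K27ac anchors merged alone. It was 79.3% of the main 948 regions when only ARID1A anchors of loops at that value counted. The gained base pairs under ARID1A were 74.7% at a ratio of 3 and 62.4% with H3K27ac anchors merged alone. In the main 948 regions they were 63.3% with ARID1A anchors limited to that value. With either ARID1A replicate left out they were 67.7% to 67.8% in those regions. Calls for ARID1A against H3K27ac were 92 higher and 584 lower with library totals, 113 and 77 within covers of 1.2 times (fewer regions tested), and 156 to 203 and 317 to 337 with 1 library left out, where the lone library is assumed to vary like the others. Without the second H3K27ac day 3 library the higher calls numbered 156. With the replicate block they were 233 and 372, and the block changed no other result by more than 1.5 times: the median day 3 over day 0 log2 fold change was then 0.87. That median was 0.37 with library totals, 0.87 with DESeq2, 0.93 over all loops, and 0.83 to 0.88 with 1 library left out. Restricting to similar covers left no widened region for it. No alternative changed the sign of that median, whereas the balance of higher and lower ARID1A calls turned within covers of 1.2 times. Both permutation results kept their direction under all 7 alternatives, in a design that cannot pass 0.05. The difference in PET share was -1.96 percentage points with loops at a deposited value of 0.01 or less, against -6.03 in the main setting. DESeq2 called 194 higher and 308 lower. Day 0 depth limits regions with few PETs.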

Other observations

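The 61 regions with a day 0 cover at least 2 times the day 3 cover, called narrowed here, are described with no test because the same contrast chose them. Their median cover went from 8190 to 3743 bp, and median CPM was 200 and 205 in the day 0 libraries and 65.5 and 65.2 in the day 3 libraries. Both day 3 libraries lay below both day 0 libraries in 56 of them (91.8%), against 42.1% of the 6990 regions called at both times. ARID1A anchors were called in 48 (78.7%, 95% Wilson interval 66.9 to 87.1%). ARID1A cover exceeded the day 3 H3K27ac cover in 45 of the 61 (73.8%) and in 399 of the 948 widened regions (42.1%). The share was 41.9% over all 6990 regions called at both times and 41.5% in the comparison set. Since the day 3 H3K27ac cover chose the narrowed and the widened regions, nothing is read from their difference. Of the base pairs that lost H3K27ac in narrowed regions, 66.9% lay under an ARID1A anchor.

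PETs joining separate anchors inside 1 merged region, left out of the levels above, were present in 78 and 76 of the 948 widened regions in the day 0 libraries and in 262 in both day 3 libraries. The ARID1A libraries had them in 172 and 173. In the 5572 comparison regions the counts were 374 and 374, then 307 and 309, then 279 and 275. At 12q14.3, 148 and 146 ARID1A PETs lay inside the merged region and 0 H3K27ac PETs did in any library, since H3K27ac had 1 anchor there at each time.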
